A study of Mus musculus with 14 samples.

Results

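A set of 10 genes that mark endothelial cells were followed in bulk RNA-seq libraries of mouse plexiform neurofibromas (PNs) and of normal nerve tissue. They are Pecam1, Kdr, Flt1, Tek, Tie1, Vwf, Eng, Cldn5, Esam and Emcn. They were chosen by symbol as the 10 rows with these names among the 24062 genes of the count table. All 10 passed the filter on low counts in each comparison. The control group was normal dorsal root ganglia (DRGs) with their nerve roots from mice with genotype Nf1fl/fl (n = 3), which carry the floxed Nf1 alleles and no Cre. The PN groups came from DhhCre;Nf1fl/fl mice, in which Cre driven by the Dhh promoter deletes Nf1 in cells of the Schwann cell lineage. The slow-growing group (n = 5) had changed in volume by less than 5 mm3 over 2 months of MRI, and the fast-growing group (n = 6) had grown by more than 35 mm3. Every library is labelled as untreated with drug and as of a mixed C57BL/6, I-129 and FVBN strain background, and the study's methods give an age of 9 months for the mice, while a legend in the study gives 7 months. The question addressed is whether transcripts of vessel-lining cells differ between control tissue and PNs, and between slow- and fast-growing PNs.

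Endothelial cells line blood and lymph vessels. Vascular endothelial growth factors act on them through the receptors encoded by Kdr (VEGFR2) and Flt1 (VEGFR1), of which the first carries most of the growth signal and the second binds the ligand tightly and limits it. Angiopoietins act through Tek (TIE2), and Tie1 is its partner without a well-defined ligand of its own. Eng (endoglin) is a co-receptor for ligands of the TGF-β family. Pecam1, Cldn5 and Esam lie at the contacts between the cells, Emcn encodes a sialomucin of the capillary and venous surface, and Vwf encodes the clotting glycoprotein that endothelial cells store and release. In peripheral nerve, the vessels inside the nerve form a barrier between blood and nerve. The Dhh-Cre allele is not directed at endothelial cells, so the cells that express these genes are not those in which Nf1 is meant to be lost.

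The libraries held between 9596773 and 17594164 counts on genes, and the members between 32 (Cldn5) and 1328 (Pecam1, Vwf) counts per library, so that each member was measured in each library. Levels are CPM, the count scaled to the size of the library, after TMM scaling, and 3 counts correspond to 0.166 to 0.317 CPM. Slow-growing replicate 5 stood apart: its summed level of the 10 members was 525.6 CPM, against 117 to 229 CPM in the other 4 slow-growing PNs. Members' counts and levels, list counts in all PNs together and correlations that rest on it are given with and without it. List counts that set the slow-growing group alone against another group are given with it only. In whole tissue, fewer endothelial cells and less RNA of a gene per endothelial cell cannot be told apart. DRGs and PNs were separate libraries throughout, and effects of tissue and of library preparation cannot be told apart. The labels do not pair libraries or give a batch, and the p-values measure only the spread between these libraries.

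To show the start regions of the receptors for vascular endothelial growth factor and angiopoietins, of which Kdr was called in each comparison with controls and Tie1 in none, RefSeq promoters of the build GRCm38.p6 (250 bases before to 50 after the start site) are given for Kdr, Flt1, Tek and Tie1. The table held a promoter for 7 of the 10 members. Capitals mark each match, on either strand, to the ETS core letters CCGGAA or CAGGAA, the GATA letters AGATAA or the SOX letters ACAATG, and the first 2 share no overlap with each other here. Kdr lies at chr5:75978406-75978705 (minus strand), Flt1 at chr5:147725962-147726261 (minus strand), Tek at chr4:94739039-94739338 (plus strand) and Tie1 at chr4:118489800-118490099 (minus strand).
Kdr: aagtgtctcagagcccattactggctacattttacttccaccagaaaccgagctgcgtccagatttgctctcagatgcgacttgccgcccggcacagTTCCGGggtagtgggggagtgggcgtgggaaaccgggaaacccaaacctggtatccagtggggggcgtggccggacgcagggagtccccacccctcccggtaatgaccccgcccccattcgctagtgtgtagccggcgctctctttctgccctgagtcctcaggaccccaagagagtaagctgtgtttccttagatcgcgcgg
Flt1: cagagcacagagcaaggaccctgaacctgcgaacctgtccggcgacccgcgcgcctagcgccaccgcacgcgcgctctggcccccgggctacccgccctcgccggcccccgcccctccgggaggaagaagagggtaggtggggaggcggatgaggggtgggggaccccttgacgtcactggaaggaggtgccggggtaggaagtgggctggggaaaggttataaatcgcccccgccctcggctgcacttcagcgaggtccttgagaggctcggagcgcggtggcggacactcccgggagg
Tek: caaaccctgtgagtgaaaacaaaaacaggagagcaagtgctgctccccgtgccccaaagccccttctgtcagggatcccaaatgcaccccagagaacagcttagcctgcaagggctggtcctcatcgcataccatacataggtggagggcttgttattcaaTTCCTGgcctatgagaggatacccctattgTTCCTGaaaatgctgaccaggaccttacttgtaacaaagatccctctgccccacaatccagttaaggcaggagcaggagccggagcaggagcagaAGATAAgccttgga
Tie1: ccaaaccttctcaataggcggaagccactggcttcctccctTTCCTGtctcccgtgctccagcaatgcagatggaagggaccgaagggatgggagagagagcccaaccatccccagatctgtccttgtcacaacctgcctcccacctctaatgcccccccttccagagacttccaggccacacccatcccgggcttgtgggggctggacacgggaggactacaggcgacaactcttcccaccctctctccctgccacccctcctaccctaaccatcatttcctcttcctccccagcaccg
Kdr had a single match, CCGGAA on the reverse strand 153 bases before the start. Tek had a pair of CAGGAA matches 89 and 59 bases before the start and AGATAA at base 287 of the 300. Tie1 had CAGGAA 209 bases before the start, and Flt1 had none of these letters in this window. CAGGAA was found in 4 of the 7 promoters (30.6% of all 32851 promoters in the table), CCGGAA in 1 (14.9%), AGATAA in 1 (11.2%) and ACAATG in 0 (12.6%). These matches are a description of the letters and were not tested for binding.

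In PNs as a group of 11, 2 of the 10 members fell against controls and 0 rose, where 26.3% of all 16283 genes tested were called and 13.4% were called lower. The members that fell were Kdr and Esam, the first a receptor of vascular endothelial growth factor and the second an adhesion molecule of endothelial contacts. Calls come from the quasi-likelihood test of edgeR, at a Benjamini-Hochberg adjusted p under 0.05 over all genes tested. The fold change was below 0 for 9 of the 10, with Vwf as the exception, against 44.3% of all genes tested. The median log2 fold change of the members was -0.76, and that of all genes tested was 0.10. Kdr was the member whose groups did not overlap, where 17.7% of all genes did not. The share of members called, 2 of 10, was not above that of all genes.

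These counts depend on single libraries. Without slow-growing replicate 5, 6 members were called lower in PNs (Kdr, Esam, Cldn5, Tek, Pecam1 and Flt1), against 27% of all genes tested, and 4 did not overlap (Kdr, Flt1, Cldn5 and Esam), against 19.4%. When any of the 3 controls was left out, Kdr alone was called. Other tissue transcripts moved with the groups. The summed level of 13 fat genes was 3406 to 5478 CPM in controls, 26.9 to 2937 CPM in slow-growing and 19.1 to 235 CPM in fast-growing PNs, and none of the 13 was at 0 in any control. The summed level of 15 skeletal muscle genes was 3949 to 16001 CPM in controls, 22.8 to 3726 CPM in slow-growing and 82.5 to 2494 CPM in fast-growing PNs. Of 14 genes of mural cells, which wrap the vessels, the sum was 1241 to 1413 CPM in controls, 374 to 1406 CPM in slow-growing and 512 to 835 CPM in fast-growing PNs. With the fat and muscle levels as covariates in the fit, 0 members were called and the Kdr log2 fold change was -1.57 (SE 0.59, adjusted p = 0.168), and 531 genes were called among all genes. The part of these tissues in the results was not tested further.

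**Figure D1:**
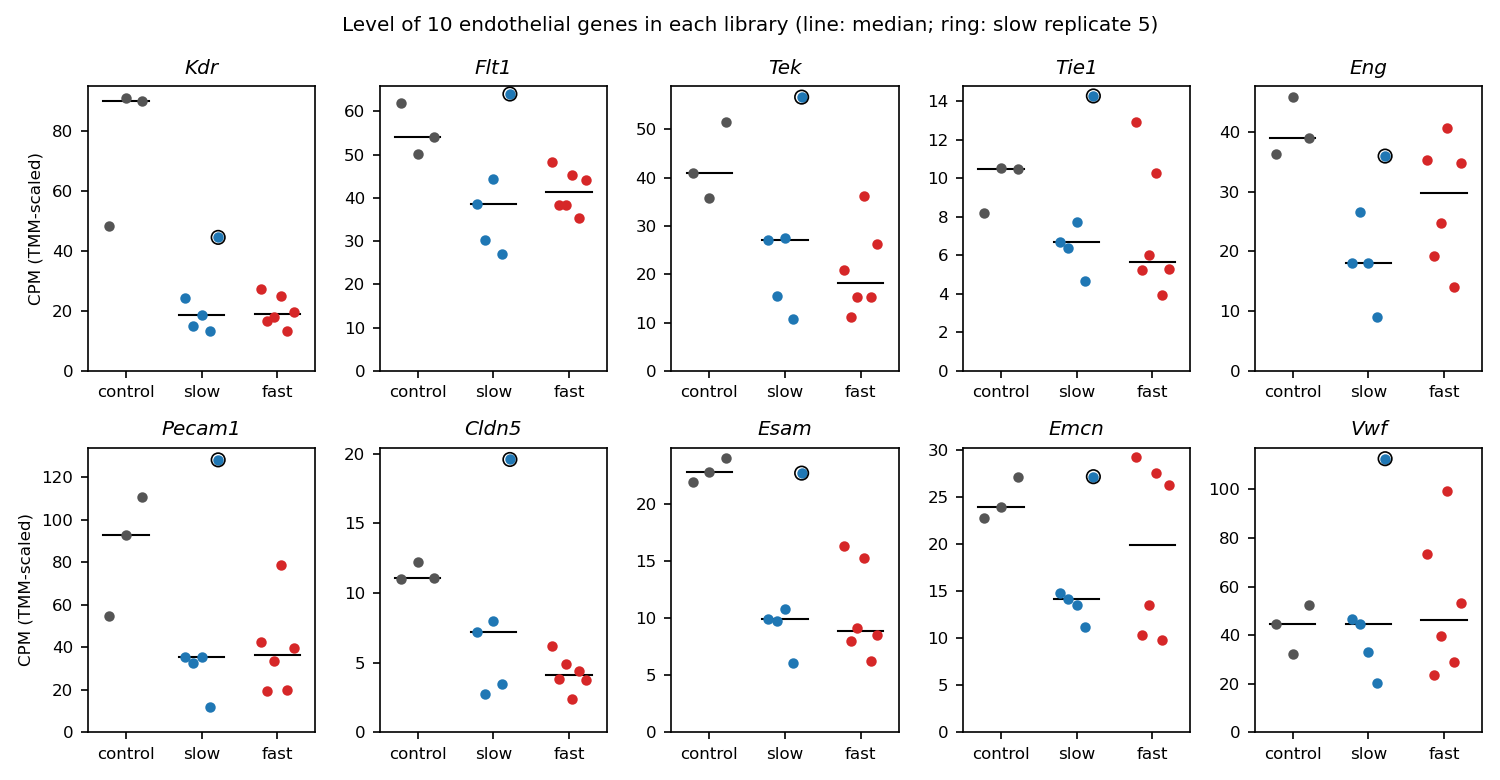
Level of each of the 10 genes (CPM after TMM scaling, y axis from 0) in each library of the control (n = 3), slow-growing (n = 5) and fast-growing (n = 6) groups, with the group median as a line and slow-growing replicate 5 ringed. Kdr lies between 13.2 and 44.6 CPM in all PNs, below its 48.4 to 91.2 CPM in controls, whereas the Vwf values of the groups overlap.

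Among the receptors for vascular endothelial growth factor, Kdr (mm10, chr5:75932827-75978458, minus strand) had 48.4, 91.2 and 90.1 CPM in the 3 controls. The slow-growing PNs had 24.3, 15.1, 18.6, 13.2 and 44.6 CPM. The fast-growing PNs ranged from 13.4 to 27.4 CPM, with a median of 18.9 CPM. Every PN was lower than every control, although slow-growing replicate 5 came close to control replicate 1. Kdr was 3.57-fold lower in PNs than in controls (log2 fold change -1.84, SE 0.30, adjusted p = 0.000498), and 5.12% of all genes tested had a lower fold change. The call held in each of the 14 fits that left out 1 library. It also held with DESeq2, limma-voom, DESeq2 size factors, no low-count filter, a fit of all 14 libraries, and removal of the trend with length and GC content. It was lost with fat and muscle levels as covariates, where Kdr was at -1.57 (SE 0.59, adjusted p = 0.168).

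Flt1 (chr5:147561604-147726011, minus strand) had 61.9, 50.2 and 54.0 CPM in controls. In slow-growing PNs its values were 38.6, 30.3, 44.5, 26.9 and 64.0 CPM, and in fast-growing PNs they ran from 35.4 to 48.3 CPM with a median of 41.3 CPM. All PNs other than slow-growing replicate 5 were below the lowest control. The log2 fold change in PNs was -0.42 (SE 0.20, adjusted p = 0.126), which did not pass the threshold. It passed in 1 of 7 changes of the processing other than leaving out a library. The ratio of Flt1 to Kdr CPM was 0.551 to 1.28 in controls and 1.44 to 2.64 in PNs, without overlap. This ratio and the other ratios were chosen after their values were seen and are descriptions.

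Of the angiopoietin receptors, Tek (chr4:94739289-94874976, plus strand) had 41.0, 35.8 and 51.5 CPM in controls. Slow-growing PNs had 27.1, 15.5, 27.6, 10.7 and 56.7 CPM, and fast-growing PNs 11.2 to 36.2 CPM with a median of 18.1 CPM. In 9 of 11 PNs Tek was below all controls, and the values of slow-growing replicate 5 and fast-growing replicate 4 lay among or above them. The PN difference was -0.84 on the log2 scale (SE 0.40, adjusted p = 0.135). Tie1 (chr4:118471191-118490061, minus strand) was the member with the fewest transcripts per length. It had 8.2, 10.5 and 10.5 CPM in controls and 6.7, 6.4, 7.7, 4.7 and 14.3 CPM in slow-growing PNs. Its fast-growing values were 3.92 to 12.9 CPM with a median of 5.65 CPM, on either side of the controls. The log2 fold change of Tie1 was -0.36 (SE 0.35, adjusted p = 0.471), and the ratio of Tie1 to Tek CPM overlapped between PNs (0.203 to 0.617) and controls (0.200 to 0.295).

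Eng (chr2:32646595-32682669, plus strand) had 36.4, 45.9 and 39.0 CPM in controls. The slow-growing values were 18.1, 26.7, 18.1, 8.94 and 36.0 CPM, all below the controls, while the fast-growing values of 14.1 to 40.7 CPM (median 29.8 CPM) reached into them. The log2 fold change in PNs was -0.68 (SE 0.34, adjusted p = 0.158). An exon of Fpgs lies on the opposite strand over part of Eng, and the sources used here do not state whether counting used strand. None of the other 9 members shares an exon position with another annotated gene.

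Among the genes of endothelial contacts, Esam (chr9:37528078-37538319, plus strand) had 21.9, 22.7 and 24.002 CPM in controls. Slow-growing PNs had 9.88, 9.77, 10.8, 6.02 and 22.7 CPM, and fast-growing PNs 6.21 to 16.3 CPM with a median of 8.84 CPM. The controls lay within a narrow range, and 10 of the 11 PNs were below it. Esam fell 2.05-fold in PNs (log2 fold change -1.04, SE 0.32, adjusted p = 0.0271). The call was lost without control replicate 1, 2 or 3 (adjusted p = 0.0559, 0.0875 and 0.109) and with the trend in length and GC content removed (adjusted p = 0.0794). Cldn5 (chr16:18776847-18778262, plus strand), the tight junction claudin of barrier endothelium, had 10.97, 12.2 and 11.1 CPM in controls. Its slow-growing values were 7.22, 2.78, 8.02, 3.47 and 19.6 CPM, and its fast-growing values 2.42 to 6.20 CPM with a median of 4.13 CPM. Only slow-growing replicate 5 exceeded a control. The log2 fold change in PNs was -0.92 (SE 0.48, adjusted p = 0.178), and without that library it was -1.28 (adjusted p = 0.00833). Under 7 other changes of the processing Cldn5 was called in 1, with fold changes from -1.21 to -0.046. Pecam1 (chr11:106654217-106750628, minus strand), which encodes CD31, had 54.8, 92.9 and 110.4 CPM in controls. Slow-growing PNs had 35.4, 32.8, 35.2, 11.9 and 128.1 CPM, and fast-growing PNs 19.5 to 78.8 CPM with a median of 36.6 CPM. It was below all controls in 9 of 11 PNs (log2 fold change -0.99, SE 0.51, adjusted p = 0.171), and without slow-growing replicate 5 the fold change was -1.30 (adjusted p = 0.0266).

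Emcn (chr3:137341067-137432185, plus strand) had 22.8, 23.9 and 27.2 CPM in controls and 14.8, 14.2, 13.5, 11.2 and 27.2 CPM in slow-growing PNs. The fast-growing PNs had 3 libraries between 9.84 and 13.5 CPM and 3 between 26.3 and 29.3 CPM. The first 3 lay below all controls, 2 of the others above them, and replicate 6 (26.3 CPM) among them. Its log2 fold change in PNs was -0.45 (SE 0.34, adjusted p = 0.343). Vwf (chr6:125546774-125686679, plus strand) had 44.5, 32.4 and 52.4 CPM in controls and 46.8, 44.6, 33.1, 20.4 and 112.6 CPM in slow-growing PNs. The fast-growing values were 23.7 to 99.2 CPM, with a median of 46.3 CPM. PNs lay both above and below the controls. Its log2 fold change was 0.28 (SE 0.46, 95% confidence interval -0.71 to 1.27, adjusted p = 0.687), an interval that covers both lower and higher levels in PNs.

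Slow-growing PNs were then set against controls alone. Kdr fell 3.40-fold (log2 fold change -1.76, SE 0.42, adjusted p = 0.0308), and it was the only member called, where 11.3% of all 15714 genes tested were called and 7.13% were called lower. Kdr and Eng did not overlap between the groups, where 23.4% of all genes did not. Without slow-growing replicate 5, each member other than Vwf lay below all controls in all the other slow-growing PNs. For Tie1 the gap was small (up to 7.72 against 8.21 CPM or more). The share of all genes without that library is not given here. The log2 fold changes of the other 9 ran from -0.99 (Esam, SE 0.38, adjusted p = 0.123) to 0.22 (Vwf, SE 0.50, adjusted p = 0.774). Eng was at -0.94 (SE 0.38, adjusted p = 0.141). Without slow-growing replicate 5, Kdr (-2.15), Esam (-1.37, adjusted p = 0.018) and Emcn (-0.92, adjusted p = 0.0277) were called, against 7.87% of all genes. The Kdr call was lost without control replicate 2 or 3 (adjusted p = 0.122 and 0.128) and without slow-growing replicate 1, 2 or 3 (adjusted p = 0.0721, 0.0552 and 0.077), with fold changes between -1.77 and -1.61. It was also lost with fat and muscle levels as covariates (-1.25, SE 0.94, adjusted p = 0.928). Fat and muscle transcripts varied within this group. Slow-growing replicates 2 and 3 held 1653 and 1683 CPM of fat genes and had 15.1 and 18.6 CPM of Kdr. Slow-growing replicates 1 and 4 held 212 and 26.9 CPM of fat genes and had 24.3 and 13.2 CPM of Kdr. Slow-growing replicate 5 held the most of each, with 2937 CPM of fat genes and 44.6 CPM of Kdr. The skeletal muscle genes ran from 22.8 to 3726 CPM in this group, and slow-growing replicate 5 lay below their median of 1133 CPM.

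Fast-growing PNs had 5 members lower than controls, where 31.4% of all 16037 genes tested were called and 16.7% were called lower. They were Kdr (3.98-fold lower, log2 fold change -1.99, SE 0.27, adjusted p = 0.000604), Cldn5 (2.78-fold, -1.48, SE 0.26, adjusted p = 0.00241), Esam (2.23-fold, -1.16, SE 0.30, adjusted p = 0.0171), Flt1 (1.37-fold, -0.46, SE 0.13, adjusted p = 0.0279) and Tek (2.12-fold, -1.08, SE 0.34, adjusted p = 0.0373). They include the pair of VEGF receptors, TIE2 and a pair of contact proteins. Leaving out 1 library at a time, Tek was called in 3 of 9 fits (adjusted p up to 0.147), Flt1 in 5 of 9 (up to 0.0953) and Esam in 7 of 9 (up to 0.0648). Under 7 other changes of the processing, Tek was called in 5 and Flt1 in 4. Kdr, Cldn5, Esam and Flt1 did not overlap between the groups, where 32.4% of all genes did not. Pecam1 was at -1.19 (SE 0.43, adjusted p = 0.0631), and it was called without fast-growing replicate 4 (-1.53, adjusted p = 0.00842). The log2 fold changes of Eng, Tie1 and Emcn were -0.57, -0.47 and -0.38, with adjusted p of 0.208, 0.388 and 0.499. The members called numbered 3 without control replicate 2, 2 without control replicate 3, 3 without fast-growing replicate 3 and 3 in a fit of all 14 libraries. Kdr and Cldn5 were called in each of the 9 fits that left out 1 library. With fat and muscle levels as covariates 0 members were called, and 0 genes in all, and the Kdr fold change was then -1.80 (SE 1.15, adjusted p = 0.827). In this comparison 13 of 13 fat genes and 13 of 15 skeletal muscle genes fell.

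**Figure D2:**
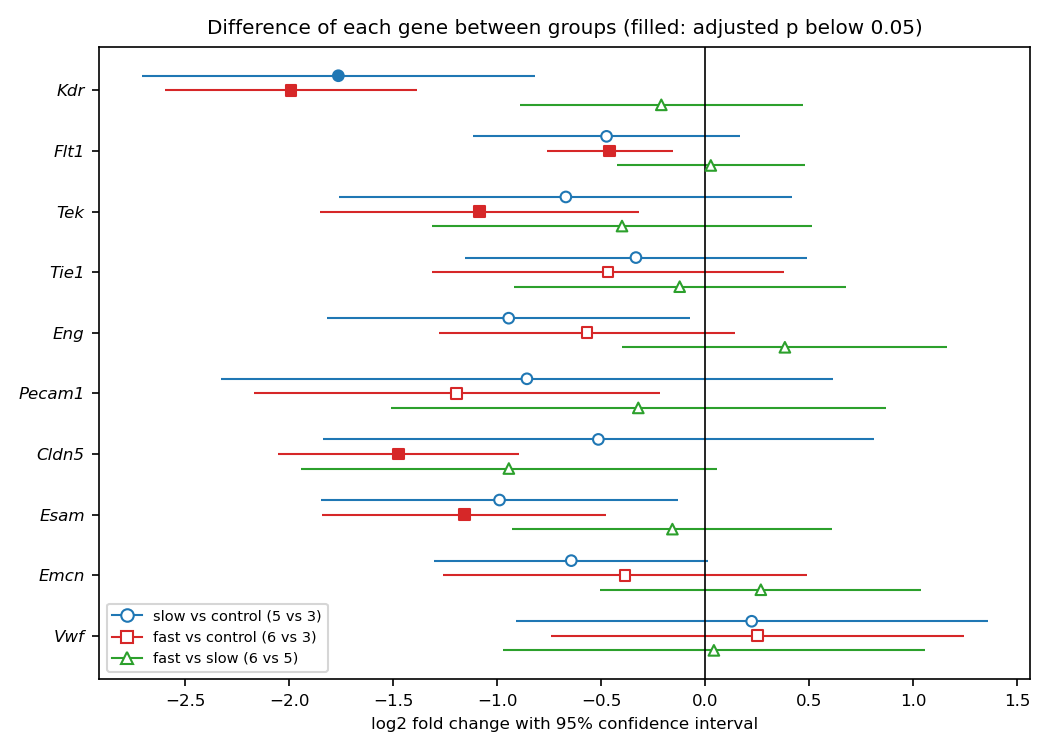
Log2 fold change (x axis) of each gene with its 95% confidence interval, for slow-growing PNs versus controls (circles), fast-growing PNs versus controls (squares) and fast- versus slow-growing PNs (triangles), with filled symbols for adjusted p under 0.05. Kdr lies farthest below 0 in both comparisons with controls (-1.76 and -1.99), and every interval of fast versus slow spans 0.

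Fast- and slow-growing PNs did not differ detectably in any member. By edgeR's test 0 of 10 were called, 0 had an unadjusted p under 0.05, and 0 were called by DESeq2 or limma-voom, where 1.27% of all 15465 genes tested were called. None separated the groups, where 3.01% of all genes did. The largest difference was that of Cldn5, at -0.94 (95% confidence interval -1.94 to 0.06, adjusted p = 0.271). The Kdr difference was -0.21 (-0.89 to 0.47) and that of Flt1 was 0.03 (-0.43 to 0.48). For Vwf the interval was -0.97 to 1.06, and for Pecam1 it was -1.51 to 0.87. Leaving out slow-growing replicate 5 or other single libraries gave 0 calls each time, and the Cldn5 difference then ran from -1.17 to -0.32.

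The members did not move by the same amount, so each was also expressed relative to the other 9, as its log2 CPM minus their mean log2 CPM. This measure was chosen after the values had been seen and is a description. Kdr was at 1.29 ± 0.44 (SD, n = 3) in controls and 0.17 ± 0.19 (n = 11) in PNs, and each PN lay below each control. Esam was at -0.59 ± 0.10 in controls and -0.90 ± 0.18 in PNs, also without overlap. Vwf lay the other way, at 0.40 ± 0.38 in controls and 1.47 ± 0.35 in PNs, and each PN lay above each control. Thus 3 of the 10 members did not overlap by this measure, where 10.6% of all genes did not when set against the mean of the members. Without slow-growing replicate 5 the same 3 members did not overlap, but 35.6% of all genes then did not, so the count is near the background there. The ratio of Vwf to Kdr CPM was 0.356 to 0.920 in controls, 1.54 to 2.95 in slow-growing and 1.43 to 3.98 in fast-growing PNs. Slow-growing replicate 5 lay within the range of the other PNs for 5 members by this measure, among them Kdr, Esam and Vwf. It was the highest PN for Pecam1 and Cldn5 and the lowest for Flt1, Eng and Emcn. Pecam1, Tek, Eng, Cldn5 and Flt1 overlapped between PNs and controls relative to the others, as did Tie1 and Emcn.

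**Figure D3:**
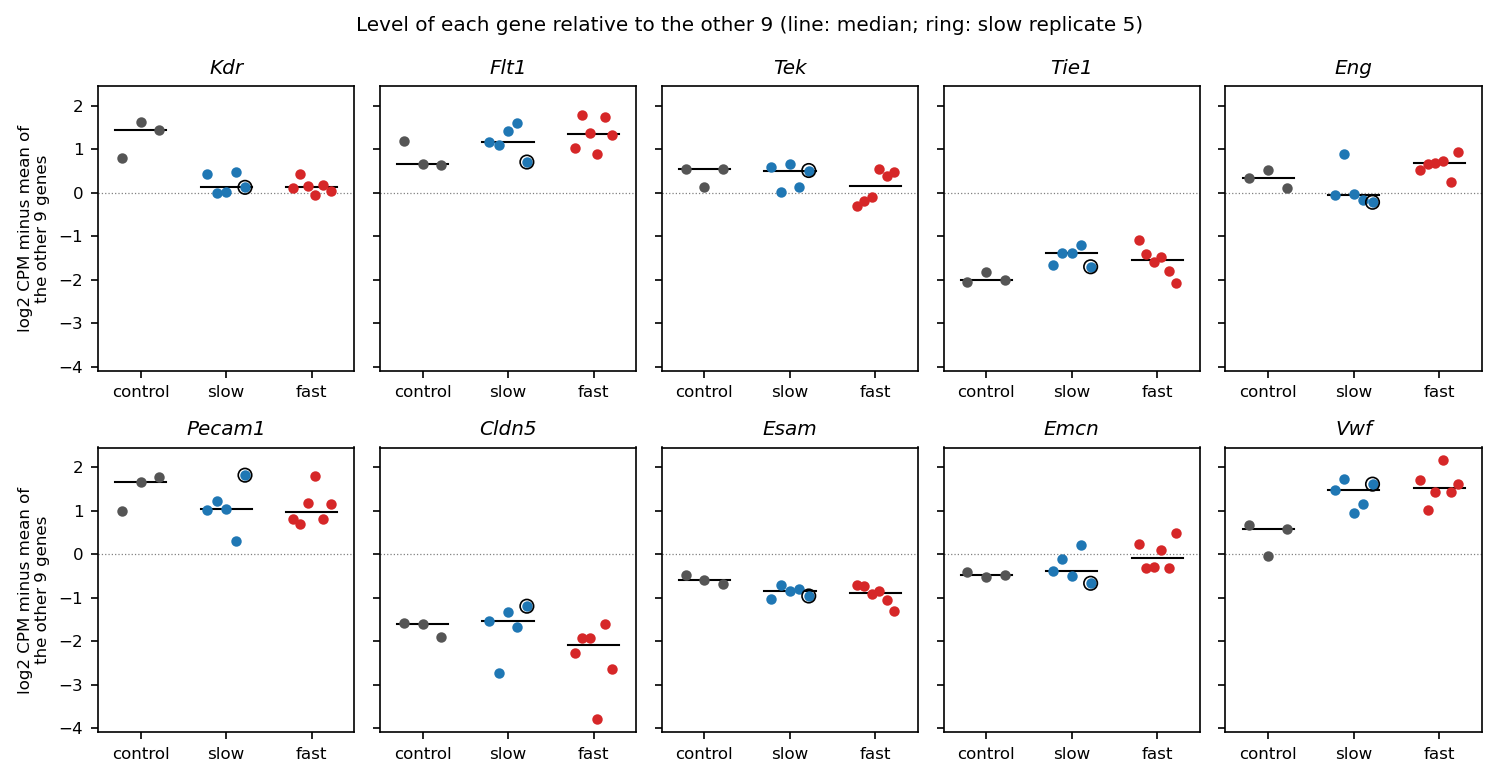
Log2 CPM of each gene minus the mean log2 CPM of the other 9 (y axis) in each library of the control, slow-growing and fast-growing groups, with the group median as a line and slow-growing replicate 5 ringed. Kdr has a mean of 1.29 in controls and 0.17 in PNs and Vwf one of 0.40 and 1.47, each without overlap.

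Per kilobase of the longest annotated transcript, Pecam1 had the highest level in each group, at 25.0 ± 8.3 CPM per kb in controls, 14.1 ± 13.2 in slow-growing and 11.3 ± 6.3 in fast-growing PNs. Without slow-growing replicate 5 the slow-growing mean of Pecam1 was 8.38 ± 3.30 CPM per kb (n = 4), still the highest of the 10. Kdr came next in controls at 12.9 ± 4.1 CPM per kb, with Esam at 12.3 ± 0.58 and Eng at 11.8 ± 1.4, and these 3 did not differ beyond their spread. Tek (9.19 ± 1.72), Cldn5 (8.07 ± 0.48) and Flt1 (8.03 ± 0.86) followed and also overlapped as neighbours. Emcn was at 6.999 ± 0.64, Vwf at 4.88 ± 1.14 and Tie1 at 2.30 ± 0.31 CPM per kb, and each of these was above the next in all 3 controls. In PNs the order of Kdr was lower. Its rank was 9 in slow-growing PNs (3.91 ± 2.14 CPM per kb, and 3.01 ± 0.82 at the same rank without replicate 5) and 8 in fast-growing PNs (3.38 ± 0.89), while Tie1 was last in each group. Vwf took rank 6 in slow-growing (5.83 ± 4.05, and 4.10 ± 1.38 at the same rank without replicate 5) and took rank 4 in fast-growing PNs (6.00 ± 3.26), where its neighbours overlapped with it.

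Among the 11 PNs the members varied together, as a description over libraries that share their tissue makeup. On log2(CPM + 1), the median Pearson correlation over the 45 pairs was 0.80, from 0.14 to 0.98, and the median without slow-growing replicate 5 was 0.74. The closest pair was Tie1 and Esam (Pearson 0.98, Spearman 0.99, and 0.98 without that library), followed by Pecam1 and Vwf (0.95, Spearman 0.96). Kdr had a median of 0.87 with the other members and Vwf also 0.87 (0.80 and 0.82 without that library), so these genes varied with the rest from PN to PN although their levels stood differently to it than in controls. Cldn5 was the least alike, with a median of 0.55, which was 0.13 without slow-growing replicate 5. The 8 genes most like the members over these PNs, by the median of their 10 correlations, were Robo4 (0.91), Ptprb (0.89), Mmrn2 (0.88), Higd1b (0.87), Podxl (0.86), Tgfb3 (0.86), Ffar2 (0.86) and Dvl2 (0.85). Without slow-growing replicate 5 these medians ran from 0.76 (Ffar2) to 0.86 (Robo4), and Robo4, Ptprb and Dvl2 were then at ranks 3, 6 and 8. The other 5 left the first 8 (Higd1b at rank 13, Mmrn2 at 15, Podxl at 37, Tgfb3 at 49 and Ffar2 at 61), so their place rests in part on that library. Robo4, Ptprb and Mmrn2 are in the list of other endothelial genes and Higd1b in the mural list.

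A list of 25 other endothelial genes was set beside the members. In PNs 8 of 25 fell and 0 rose, where 13.4% of all genes tested were called lower. Each of the 8 calls was lost without control replicate 3. Those of Icam2, Fli1, Cyyr1, Rasip1 and Arhgef15 were also lost without control replicate 2. The share of all genes called in those fits is not given here. Of the 25 fold changes, 24 were below 0, against 44.3% of all genes, and their median was -0.65, against 0.10 for all genes. The counts of the further lists in PNs stand against 13.4% of all genes called lower and 12.9% called higher. Of the 189 genes on these lists 15 are on more than 1, among them Flt4, Unc5b and Efnb2, so the counts are not separate. Without slow-growing replicate 5, where 14% of all genes were called lower, 12 of 25 other endothelial genes fell, as did 5 of 12 vessel growth ligands, 10 of 19 transcription factors, 2 of 10 arterial genes, 3 of 6 lymphatic genes and 9 of 14 mural genes. Egfl7, a secreted vessel factor, had 49.9 ± 21.5 CPM in controls and 16.8 ± 9.0 in PNs (log2 fold change -1.57, adjusted p = 0.00803). Icam2, an adhesion molecule, had a log2 fold change of -2.04 (adjusted p = 0.014). Gpihbp1, which carries lipoprotein lipase on capillaries, had 9.14 ± 1.06 CPM in controls and 1.87 ± 1.75 in PNs (log2 fold change -2.30, adjusted p = 0.0118), without overlap. In fast-growing PNs 13 of 25 fell against controls, where 16.7% of all genes were called lower. In slow-growing PNs 2 of 25 fell, a share near the 7.13% of all genes, while 0 of 25 were called between fast and slow (2 at an unadjusted p under 0.05). These counts include slow-growing replicate 5 and are not given without it.

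A list of 12 tested vessel growth ligands holds ligands of the members' receptors and of other receptors, and of the 12, 3 fell in PNs and 1 rose. Vegfa, the main ligand of Kdr and Flt1, had 91.2 ± 17.8 CPM in controls and 38.3 ± 15.2 in PNs (log2 fold change -1.25, adjusted p = 0.00503). Vegfb, a ligand of Flt1, was at 49.95 ± 5.8 and 18.8 ± 8.7 CPM (-1.41, adjusted p = 0.0102). Angpt1, the activating ligand of Tek, was at 16.7 ± 5.9 and 4.27 ± 2.08 CPM (-1.97, adjusted p = 0.00141). The values of these 3 ligands did not overlap between PNs and controls. Angpt2 (0.53, adjusted p = 0.055) and Pgf (0.84, adjusted p = 0.0643), also on the list, had fold changes above 0 without a call. Of the 12 fold changes, 8 were below 0. Efnb2, an ephrin of arterial endothelium also made by other cells, rose from 37.8 ± 9.8 to 72.9 ± 27.1 CPM (0.95, adjusted p = 0.0424). Between fast and slow, 0 of 12 were called and 5 had an unadjusted p under 0.05, among them Vegfa (-0.78, adjusted p = 0.0684) and Efnb2 (0.77, adjusted p = 0.0695). The share of all genes under that unadjusted cut is not given here, so such counts stand without a background. Of 14 other receptors and co-receptors, 2 fell in PNs, a share near the 13.4% of all genes called lower. Flt4, the receptor of lymphatic endothelium, was at 28.0 ± 16.4 CPM in controls and 7.44 ± 2.69 in PNs (-1.91, adjusted p = 0.0011), and Unc5b, a netrin receptor, was at 18.2 ± 4.6 and 8.24 ± 2.12 CPM (-1.14, adjusted p = 0.0019).

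Of 19 transcription factors used by endothelial cells, 6 fell in PNs and 0 rose. The calls of Fli1, Tal1, Ets2 and Mef2c were lost without control replicate 3. Those of Klf2 and Klf4 held in each fit that left out 1 library. Klf2, a factor induced by blood flow, had 30.0 ± 4.1 CPM in controls and 5.10 ± 2.51 in PNs (log2 fold change -2.56, adjusted p = 0.000301). Klf4 fell by 1.61 (adjusted p = 0.00299) and Mef2c, which muscle also expresses, by 1.29 (adjusted p = 0.00527). By vessel type, 1 of 10 arterial genes rose (Efnb2) and 1 fell (Unc5b). Of 8 venous or activated vessel genes, Nr2f2 rose (47.4 ± 19.3 to 138.4 ± 52.6 CPM, 1.55, adjusted p = 0.0132), and Lrg1 (-1.81, adjusted p = 0.017) and Vcam1 (-1.48, adjusted p = 0.0227) fell. Of 6 lymphatic genes tested, 4 fell. Prox1, the master factor of lymphatic identity that some muscle cells also express, was at 16.9 ± 13.7 CPM in controls and 0.66 ± 0.38 in PNs (-4.66, adjusted p = 8.07e-05), and Mmrn1 fell by 3.28 (adjusted p = 0.00189). The controls differed widely, with Prox1 at 1.12, 23.2 and 26.2 CPM in replicates 1, 2 and 3, and replicate 1 lay within the PN range (0.136 to 1.22). Flt4 was at 9.68, 41.1 and 33.3 CPM in the same controls, again with replicate 1 within the PN range. Reln, on the lymphatic list but also made by other cells, rose from 244 ± 146 to 880 ± 393 CPM (1.85, adjusted p = 0.0209). A list of 17 barrier and junction genes of nerve capillaries holds genes that other cells make too, such as Slc2a1 in perineurial cells and Tjp1 in epithelia. Of these 17, 0 were called in PNs versus controls by edgeR (1 at an unadjusted p under 0.05), and their median log2 fold change was 0.22. In slow-growing PNs 1 of the 17 rose against controls, the amino acid transporter gene Slc7a5 (30.3 ± 13.9 to 74.5 ± 15.1 CPM, 1.26, adjusted p = 0.0348), without overlap. Slc7a5 was named after its values had been seen, and 4.12% of all genes were called higher and 23.4% did not overlap in that comparison, so 1 of 17 is near the background.

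Cells and tissue next to the vessels were read by further lists. Of 14 mural cell genes, 6 fell and 0 rose in PNs, and 10 of the 14 fold changes were below 0. The calls of Notch3, Tagln and Higd1b were lost when any 1 of the controls was left out. Those of Abcc9, Kcnj8 and Des held in each such fit. Among those not called were Pdgfrb (log2 fold change 0.15), Rgs5 (-0.06), Vtn (0.19), Cspg4 (1.16, adjusted p = 0.11) and Mcam (1.10, adjusted p = 0.0558). In fast-growing PNs 8 mural genes fell and 2 rose against controls, where 16.7% of all genes were called lower. Abcc9 was at 143.3 ± 50.5 CPM in controls and 27.2 ± 9.4 in PNs (log2 fold change -2.40, adjusted p = 3.42e-05), Kcnj8 fell by 1.96 (adjusted p = 0.00208), and Des, which muscle fibres also express, by 3.55 (adjusted p = 0.00351). Mcam was the mural gene called between fast and slow, higher in fast-growing PNs (209.8 ± 63.2 against 102.4 ± 17.2 CPM, 1.03, adjusted p = 0.0449), while 10 of the 14 mural fold changes were below 0 there and their median was -0.61. Of 6 platelet genes 5 fell, and of 4 red blood cell genes 2 fell. Each of these platelet and red blood cell calls was lost without control replicate 3. Another 4 red blood cell genes were at 0 counts in each library. The summed platelet genes were at 60.8 to 266 CPM in controls, 10.7 to 61.5 in slow-growing and 9.54 to 18.9 in fast-growing PNs. Of 12 Schwann cell genes, 5 rose in PNs and 0 fell, and of 10 leukocyte and macrophage genes 1 fell (Cd52). Cd52 was at 4.67, 154 and 112 CPM in control replicates 1, 2 and 3, and the leukocyte genes summed to 191, 1349 and 1071 CPM, so that replicate 1 was low in these and in Prox1 and Flt4. It also lay within the PN range, below the other controls, for Vcam1 (13.5 against 91.2 and 91.4 CPM), Egfl7 (25.7 against 56.7 and 67.1 CPM) and Icam2 (7.17 against 18.9 and 18.0 CPM). The calls of Prox1, Flt4, Cd52, Vcam1, Egfl7 and Icam2 in PNs held without control replicate 1. Without control replicate 2 or 3 those of Icam2, Vcam1, Lrg1, Nr2f2, Reln and Cd52 were lost (adjusted p up to 0.0793, 0.167, 0.066, 0.091, 0.119 and 0.158), and without replicate 3 those of Egfl7 (0.0768), Gpihbp1 (0.058) and Mef2c (0.0978). The Efnb2 call was lost in 8 of 14 fits that left out 1 library (adjusted p up to 0.187). The part of these cells in the differences of lymphatic genes was not tested. Slow-growing replicate 5, the library with the highest summed members, also had the highest summed mural genes of the PNs (1406 CPM), 2937 CPM of fat genes and 52.4 CPM of skeletal muscle genes. With fat and muscle levels as covariates, as given above, 0 members were called against controls. The part of the other lists in the members' differences was not tested.

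**Figure D4:**
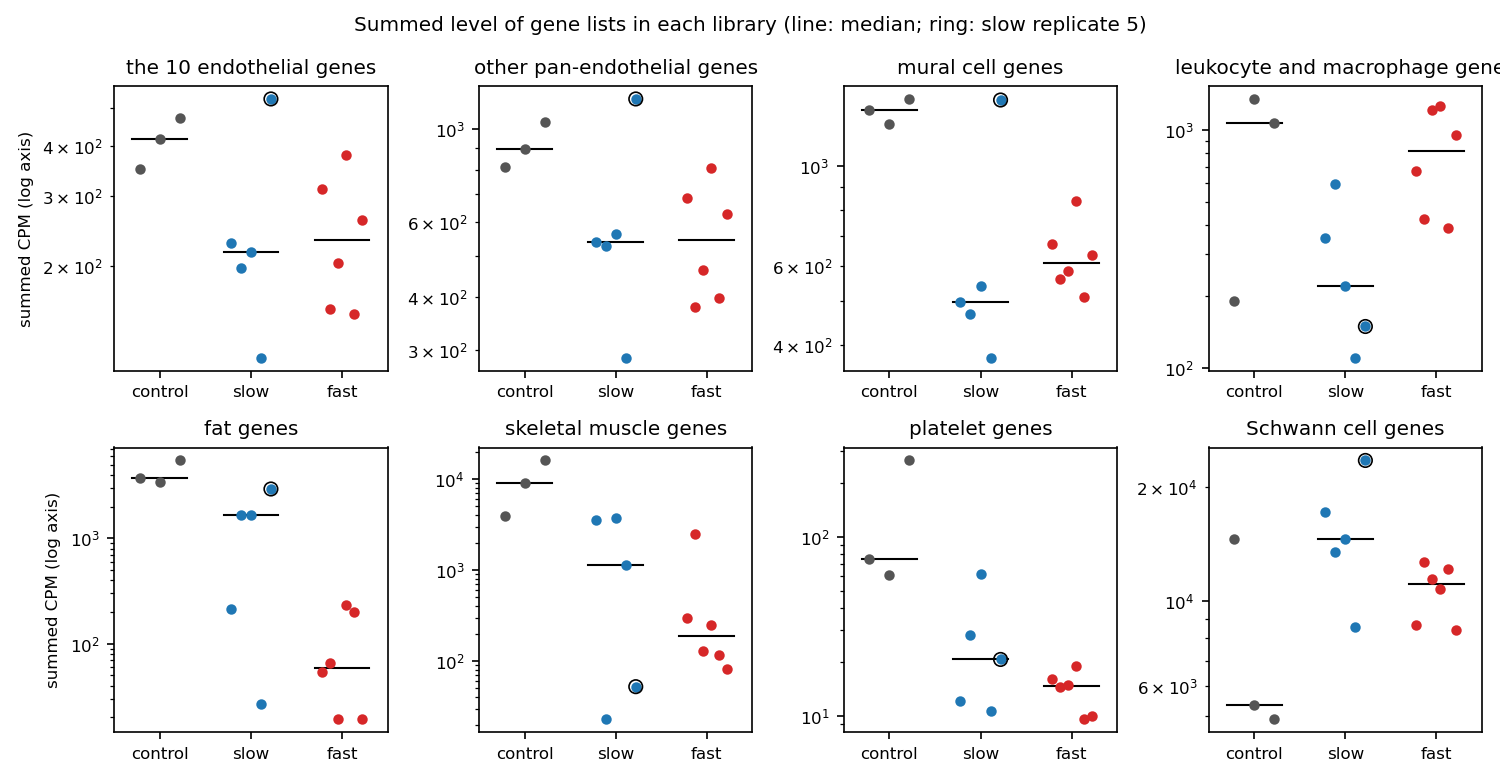
Summed CPM (y axis, log scale) of the 10 endothelial genes, 25 other endothelial genes and lists for mural cells, leukocytes, fat, skeletal muscle, platelets and Schwann cells in each library, with the group median as a line and slow-growing replicate 5 ringed. The fat genes lie between 19.1 and 235 CPM in all fast-growing PNs and between 3406 and 5478 CPM in controls, and slow-growing replicate 5 has the highest sum of the 10 endothelial genes (525.6 CPM).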

How the data were processed

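Bulk RNA-seq was analysed for 3 control DRGs, 5 slow-growing PNs and 6 fast-growing PNs, grouped by the labels. The authors used the Ovation RNA-Seq System v2 for amplification, aligned reads to mm10 with TopHat2 2.0.9 and counted them with featureCounts 1.5.2, and they deposited whole-number counts per gene without normalization. Their notes also list CASAVA 1.4, FastQC 0.11.0 and edgeR 3.16.5, and their table of normalized log2 values was not used here. The use of strand in counting was not given in the sources used here.

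Genes were kept by filterByExpr, libraries were scaled by TMM, and groups were compared by edgeR 4.0.16's quasi-likelihood test in R 4.3.3 with only the libraries of the comparison. P-values were adjusted by Benjamini-Hochberg over all genes tested. Alternatives used DESeq2 1.42.0, limma 3.58.1, other scaling and filters, covariates, offsets for length and GC content, and each library left out in turn. Leaving out slow-growing replicate 5 from the counts of members that did not overlap, the list counts in PNs and the likeness of other genes, and leaving out each library for called list genes, was added after the data had been seen. Correlations used log2(CPM + 1). Depth ran from 9596773 to 17594164 counts per library, and floors of 3 counts cover counting error only. On simulated counts in which 200 genes differed by 2 on the log2 scale, the test recovered 67.5% for PNs versus controls (16216 genes), 55% for slow-growing versus controls (15582 genes), 67% for fast-growing versus controls (15943 genes) and 82.5% for fast versus slow (15373 genes). Of its calls 5.59%, 2.66%, 2.90% and 2.37% were unchanged genes, the first above the threshold of 5%.

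The GENCODE annotation of mm10 gave positions, transcript lengths and overlaps, and RefSeq gave promoters. The members and all lists were chosen with earlier results of these data known. The genes named were the 10 members, of the other lists up to 3 called genes per direction with the lowest p in PNs versus controls or fast versus slow, and the 8 genes most correlated with the members over all 11 PNs. Slc7a5 lies outside this rule and was chosen after its values had been seen. So were the list genes named only because their calls were lost when a library was left out. Pdgfrb, Rgs5, Vtn, Cspg4, Angpt2 and Pgf, named without a call, also lie outside the rule. Genes so chosen from lists of other tissues are mostly given as list counts and sums. Python 3.11.15 with matplotlib 3.10.9 was used for the plots.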

Additional observations from a re-analysis of the deposited data

Results flagged for a closer look

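In 4 of the 20 groups examined (10 members in slow- and fast-growing PNs), the highest library lay far from the nearest of the others by Dixon's ratio. Chance gives about 1 in 20 for independent groups. These members varied together in shared libraries, so that share is no background for the 4. Each time the library was slow-growing replicate 5. Its Pecam1 level was 128 CPM (next highest 35.4), its Vwf level 113 CPM (next 46.8), its Esam level 22.7 CPM (next 10.8) and its Emcn level 27.2 CPM (next 14.8). The cause was not tested.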

How the results depend on the processing

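Of the members' fold changes under single changes of the processing, 629 stayed on their side of the threshold with their sign, 32 lost the call, 11 gained it and 28 changed sign. With fat and muscle levels as covariates, the members called were 0 for PNs versus controls, 0 for slow versus controls and 0 for fast versus controls, where Kdr was at -1.57, -1.25 and -1.80, and the sign changed for Vwf in PNs versus controls (-0.083), for Tek (0.32), Tie1 (0.11) and Cldn5 (0.27) in slow versus controls, for Tie1 in fast versus controls (0.25), and for Pecam1 (0.63), Kdr (0.11), Tek (0.21), Tie1 (0.39) and Esam (0.42) in fast versus slow. That fit spends degrees of freedom on levels whose sums separate controls from PNs, and it called 531 genes in PNs versus controls and 0 genes in the other 3 comparisons. A fit of all 14 libraries called 3 members in fast versus controls. Over the 7 changes other than leaving out a library, the Cldn5 fold change ran from -1.21 to -0.046 in PNs versus controls. In fast versus controls it ran from -2.39 to -1.09. Eng ran from -1.34 to -0.67 in PNs versus controls. Flt1 and Cldn5 were each called in 1 of the 7 in PNs versus controls, as was Pecam1 in fast versus controls. With the trend in length and GC content removed, Flt1 changed sign in fast versus slow (-0.022). Without slow-growing replicate 5, the members that did not overlap went from 1 to 4 in PNs versus controls. Leaving out 1 library at a time, the members called ran from 1 to 6 in PNs versus controls, 0 to 3 in slow versus controls, 2 to 6 in fast versus controls and 0 to 0 in fast versus slow. Fold changes that crossed 0 in this way were those of Vwf in slow versus controls (-0.29 to 0.45) and fast versus controls (-0.030 to 0.46), and in fast versus slow those of Pecam1 (-0.68 to 0.44), Kdr (-0.36 to 0.18), Flt1 (-0.092 to 0.26), Tek (-0.65 to 0.058), Tie1 (-0.37 to 0.21), Vwf (-0.26 to 0.55) and Esam (-0.33 to 0.22). The cause was not tested. No paired analysis was possible because the labels give the groups no shared replicate numbers.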
